A study of Mus musculus with 13 samples.

Results

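R-loops that lay over exons, away from gene starts and gene ends, and that were found in some libraries but not in all, were described in N2a cells. An R-loop is a stretch where RNA is base-paired to DNA and the second DNA strand is left single. They were mapped by DRIP-seq, in which genomic DNA is cut with restriction enzymes, hybrids of RNA and DNA are pulled down with the S9.6 antibody and the DNA is sequenced. The cells were N2a, a mouse neuroblastoma line with no introduced allele, transfected with a scramble siRNA (siScramble) or with siRNA against DDX1 (siDDX1), a DEAD-box RNA helicase, or EXOSC3 (siEXOSC3), part of the RNA exosome, which trims and degrades RNA. Each group had 3 untreated libraries and 1 library of DNA digested with RNase H, an enzyme that removes the RNA of such hybrids. Per the study's methods, each condition was grown as 3 plates of this 1 cell line, whose cells were then divided among the assays, so the p-values below measure the spread between such plates. Peak names inside the lists carried another treatment than the sample titles did in 12 of 12 lists, always shifted the same way round. Groups are those of the titles and are written "labelled siDDX1" and so on, and each direction between groups rests on that choice. By the peak names, libraries labelled siScramble would be siDDX1, those labelled siDDX1 would be siEXOSC3 and those labelled siEXOSC3 would be siScramble. Tests across the 3 groups keep their values whichever is right.

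Merging all peaks of the 9 untreated libraries gave 69497 regions. A region counted as variable when it was under 5000 bases wide and overlapped a peak in 2 to 8 of the 9 libraries, which 30478 regions did. Of these, 2506 had their midpoint in an annotated exon more than 1 kb from every transcript start and more than 1 kb from the 3′ end of every protein-coding gene, and these are the exonic regions described here. The number of libraries that call a region thus chose them and is given only as a description. A total of 17055 variable regions with their midpoint in an intron, at the same distances, served for comparison. A library without a peak in a region has no call there, which does not mean that it had no signal.

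Internal exons lie in the body of a gene, where RNA polymerase has already left the promoter and where the transcript is being spliced. R-loops are best known at promoters and at the ends of genes, where GC-rich DNA, strings of G on the RNA-like strand or paused polymerase favour them. Helicases, topoisomerases and RNase H enzymes are known to limit or remove them, and the RNA exosome degrades nuclear RNA that can take part in them.

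The exonic regions were not all over internal exons. The exon at the midpoint was internal in every transcript that has it in 1008 of 2506 regions (40.2%, 95% Wilson interval 38.3 to 42.2), and internal in some transcripts only in 188 (7.5%). In 1258 regions (50.2%) it was the last exon of its transcripts and internal in none. The remaining regions lay in a first exon (36) or in transcripts of a single exon (16). The midpoint lay in coding sequence in 1362 regions (54.3%), in an untranslated or noncoding exon of a protein-coding gene in 1058 (42.2%) and in a noncoding gene in 86 (3.43%). Of the 1194 last-exon regions in protein-coding genes, 824 (69.0%) were in an exon that runs to the 3′ end of the gene. Over all 1194, the midpoint lay a median of 2.84 kb from the 3′ end of the gene. Regions like these, variable and away from gene starts and ends, thus cannot be called internal-exon regions as a whole, and the 2 main classes are given separately below where they differ.

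The sequences below show what such regions look like in the genome, as 300 bases around the midpoint of 7 regions that the results turn on. They are those, among the named all-or-none regions and the named regions called in 8 libraries, whose midpoint lay in a coding exon and whose window held no untranslated exon. Each is read from mm9 on the strand of the gene, 5′ to 3′, with exon bases in capitals and intron bases in lower case.
Sipa1l2, chr8:127966377-127966676, minus strand: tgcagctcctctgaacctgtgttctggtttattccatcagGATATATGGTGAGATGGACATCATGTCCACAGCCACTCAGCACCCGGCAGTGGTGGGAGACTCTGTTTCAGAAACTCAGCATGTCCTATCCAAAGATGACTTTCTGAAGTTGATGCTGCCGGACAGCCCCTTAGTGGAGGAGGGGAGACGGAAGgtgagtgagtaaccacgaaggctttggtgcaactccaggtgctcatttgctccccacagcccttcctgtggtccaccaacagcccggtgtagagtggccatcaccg
Aoc3, chr11:101196906-101197205, plus strand: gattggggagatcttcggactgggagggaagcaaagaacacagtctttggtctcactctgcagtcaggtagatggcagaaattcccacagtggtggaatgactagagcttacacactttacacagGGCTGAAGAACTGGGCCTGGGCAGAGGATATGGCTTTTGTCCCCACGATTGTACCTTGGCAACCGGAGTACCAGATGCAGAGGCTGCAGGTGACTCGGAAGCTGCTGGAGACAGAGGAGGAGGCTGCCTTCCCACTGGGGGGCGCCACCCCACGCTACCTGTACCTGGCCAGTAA
Ranbp2, chr10:57942102-57942401, plus strand: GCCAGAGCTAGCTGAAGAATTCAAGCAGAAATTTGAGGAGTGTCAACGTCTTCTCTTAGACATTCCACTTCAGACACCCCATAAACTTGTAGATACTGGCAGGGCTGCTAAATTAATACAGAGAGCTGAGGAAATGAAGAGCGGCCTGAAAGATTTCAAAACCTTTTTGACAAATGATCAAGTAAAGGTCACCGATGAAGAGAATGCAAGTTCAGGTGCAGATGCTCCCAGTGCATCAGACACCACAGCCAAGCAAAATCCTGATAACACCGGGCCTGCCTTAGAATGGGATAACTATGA
BC057022, chr5:115061239-115061538, plus strand: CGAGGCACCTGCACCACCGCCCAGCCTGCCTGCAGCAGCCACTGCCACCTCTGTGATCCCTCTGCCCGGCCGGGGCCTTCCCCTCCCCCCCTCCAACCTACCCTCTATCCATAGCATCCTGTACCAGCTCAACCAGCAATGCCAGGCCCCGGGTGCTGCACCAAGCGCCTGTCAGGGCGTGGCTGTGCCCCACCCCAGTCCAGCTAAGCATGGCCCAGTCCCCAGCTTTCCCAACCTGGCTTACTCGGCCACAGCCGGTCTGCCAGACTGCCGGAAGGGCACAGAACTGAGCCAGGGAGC
Serbp1, chr6:67221190-67221489, plus strand: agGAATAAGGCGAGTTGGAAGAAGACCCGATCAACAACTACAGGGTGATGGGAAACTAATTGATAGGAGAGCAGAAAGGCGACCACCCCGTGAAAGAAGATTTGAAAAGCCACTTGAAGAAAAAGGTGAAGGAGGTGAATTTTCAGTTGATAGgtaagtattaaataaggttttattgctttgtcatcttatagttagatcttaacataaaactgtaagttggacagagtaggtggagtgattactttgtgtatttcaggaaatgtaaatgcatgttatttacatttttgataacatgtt
Naca, chr10:127480578-127480877, plus strand: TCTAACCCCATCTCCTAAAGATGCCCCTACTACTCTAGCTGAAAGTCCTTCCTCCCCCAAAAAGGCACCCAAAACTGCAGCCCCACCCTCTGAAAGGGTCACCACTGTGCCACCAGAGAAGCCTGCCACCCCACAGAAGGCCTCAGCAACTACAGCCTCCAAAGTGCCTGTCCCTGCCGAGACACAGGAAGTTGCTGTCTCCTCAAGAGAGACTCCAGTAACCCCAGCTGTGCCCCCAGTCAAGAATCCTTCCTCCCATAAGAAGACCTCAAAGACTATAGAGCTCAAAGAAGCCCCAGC
Pkd1, chr17:24708792-24709091, plus strand: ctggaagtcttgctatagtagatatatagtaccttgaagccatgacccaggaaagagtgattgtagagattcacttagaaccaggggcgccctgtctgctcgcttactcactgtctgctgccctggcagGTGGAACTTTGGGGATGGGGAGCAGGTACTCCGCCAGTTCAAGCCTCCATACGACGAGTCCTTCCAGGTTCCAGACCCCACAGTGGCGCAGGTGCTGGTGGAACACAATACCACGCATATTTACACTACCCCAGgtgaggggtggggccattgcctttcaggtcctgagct
The windows in Ranbp2, BC057022 and Naca were exon throughout, and those in Sipa1l2, Aoc3, Serbp1 and Pkd1 held 154, 175, 151 and 134 exon bases with the splice sites at their borders. GC content ran from 36.0% in Serbp1 to 67.0% in BC057022. GC skew, the excess of G over C on the gene's strand divided by their sum, was 0.389 in the purine-rich Serbp1 window, 0.131 in Aoc3 and -0.366 in Naca. None of the 7 held 4 runs of GGG spaced by 1 to 7 bases, a pattern of possible G-quadruplexes, on either strand. GGGG occurred 5 times in the Pkd1 window, and GAAGAA, a purine motif common in exons, occurred 2 times in Serbp1.

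The regions had a median width of 873.5 bases, with quartiles of 574 and 1436. A median of 73.2% of their bases lay in exons, and 875 of 2506 (34.9%) were exon from edge to edge. For exons internal in every transcript the median share was 32.6% and the median exon was 178 bases, shorter than the region over it. For last exons the median share was 100% and the median exon was 2856 bases. Very long internal exons were present too, and 126 of the 921 regions in internal coding exons (13.7%) were in an exon of 1000 bases or more. Such exons hold 9.48% of the bases of all annotated internal exons of protein-coding genes, though they are 0.778% of them by number. In 2016 regions (80.4%) both edges, and not the midpoint alone, were more than 1 kb from transcript starts and gene ends.

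The cut DNA sets how sharply an exon can be seen. The restriction fragment that holds the midpoint had a median length of 1747 bases, of which a median of 58.4% was exon. Between 47.9% and 62.6% of the peaks in these regions, depending on the library, had at least 1 edge on a cut site of 1 of the 5 enzymes. The summit, the base of highest pileup in a peak, lay in an exon for 60.2% to 65.2% of the peaks, with a mean of 63.1% ± 1.58 (SD, n = 9). In the Serbp1 region the peaks of 4 libraries began and ended at the same bases, as the map of deposited peaks shows.

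GC content rose at the exon and fell off outside it where the exon was internal. In regions over exons internal in every transcript, mean GC was 53.0% in the 100 bases just 3′ of the midpoint, 47.7% at 1950 bases upstream and 47.3% at 1950 bases downstream. In last-exon regions it was 48.4% just 3′ of the midpoint and 45.1% at 1950 bases downstream. In variable intronic regions it stayed between 45.7% and 46.5% at these positions. The exon rule sets the exon content of these profiles and puts an exon or an intron at their centre. The GC curves depend on that choice too and are given as a description. Exons without a region were not measured.

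**Figure D1:**
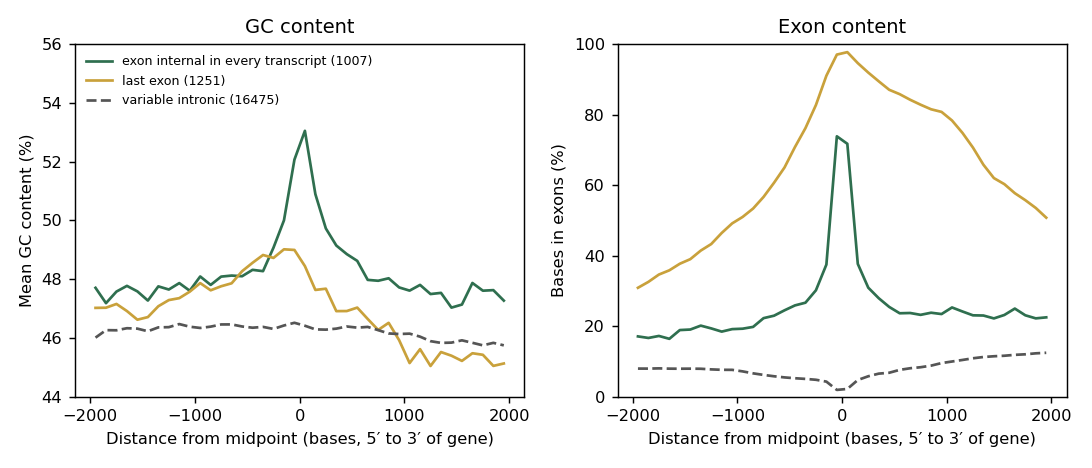
Mean GC content (left, percent) and share of bases in annotated exons (right, percent) by distance from the region's midpoint in 100-base bins, along the gene's strand, for regions over exons internal in every transcript (green, 1007 with a strand), last exons (yellow, 1251) and variable introns (grey dashes, 16475). GC rises to 53.0% at internal exons and stays near 46% in introns.

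Within each library, the peaks of exonic regions were richer in GC than those of variable intronic regions. The difference of the medians averaged 2.65 percentage points ± 0.283 (SD, n = 9), ran from 2.25 to 3.10 and was above 0 in 9 of 9 libraries (exact sign-flip permutation test, two-sided, p = 0.00391, the smallest this design gives; adjusted p = 0.00781 over 2 tests). Fold enrichment, the ratio of pileup to the local background as the peak caller gave it, differed little. The median fold of exonic peaks exceeded that of intronic peaks by 0.05 ± 0.04 on the log2 scale (SD, n = 9), above 0 in 7 of 9 libraries and 0 in the other 2 (exact sign-flip permutation test, two-sided, p = 0.0156, adjusted p = 0.0156). This difference passed the threshold as reported but not under 4 of 8 alternatives, where p was 0.0625 or 0.125. Each region was called in 2 to 8 libraries, so the same regions enter several of the differences. These tests speak of libraries and not of regions. The 2 classes were set by an exon or an intron at the midpoint, and exons without a region were not compared. The GC difference therefore cannot tell these regions from exons at large.

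The 300 bases around the midpoint carried the same contrast. Median GC was 50.7% in exonic regions, 53.0% in those over exons internal in every transcript, 48.7% in those over last exons, 46.7% in variable intronic regions and 47.7% in all merged regions. It was 52.7% in exonic regions called in all 9 libraries. Variable regions within 1 kb of a transcript start, the promoter regions, had 53.0%. The observed over expected ratio of CpG, where a low value means that CpG is depleted, was 0.279 in exonic, 0.186 in intronic and 0.384 in variable promoter regions. GGGG on either strand was found in 84.2% of exonic, 78.4% of intronic and 80.5% of all merged windows. Exonic regions called in all 9 libraries had it in 89.3% and variable promoter regions in 88.2%. High GC and GGGG were thus not particular to the variable exonic regions. The pattern of 4 GGG runs spaced by 1 to 7 bases, on either strand, was found in 6.98% of exonic windows, 5.14% of intronic windows and 7.26% of all merged windows, against 15.0% of variable promoter windows. In exonic regions called in all 9 libraries it was found in 8.89%. GAAGAA on either strand was found in 27.8% of exonic, 23.7% of intronic and 23.7% of all merged windows. Along the gene's strand alone, GAAGAA was in 18.8% of the windows over exons internal in every transcript and on the opposite strand in 14.4%, and in introns these shares were 12.1% and 13.2%. Median GC skew along the gene's strand was 0.00827 in exonic and 0.0278 in intronic windows. Matches of these letters describe the windows and nothing more, and motifs can overlap one another.

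Each library called between 588 and 1624 of the 2506 exonic regions. The libraries labelled siScramble called 615, 1405 and 1587, those labelled siDDX1 called 1597, 588 and 947, and those labelled siEXOSC3 called 837, 1012 and 1624. Replicates of 1 group thus differed by more than the groups did. The number of all peaks, which ran from 23882 to 42571, differed in the same way, and read depth was not used here. As a share of all variable regions that a library called, exonic regions made up 8.48% ± 0.163 in libraries labelled siScramble, 8.38% ± 0.119 in those labelled siDDX1 and 8.71% ± 0.347 in those labelled siEXOSC3 (SD, n = 3 each). The shares overlapped between groups and did not differ beyond the spread of the libraries (exact permutation test of the F statistic, p = 0.268, adjusted p = 0.268 over 6 tests across groups). For pairs of groups the smallest p the design allows is 0.1, and no pair of shares came below p = 0.2 (exact permutation test, two-sided).

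**Figure D2:**
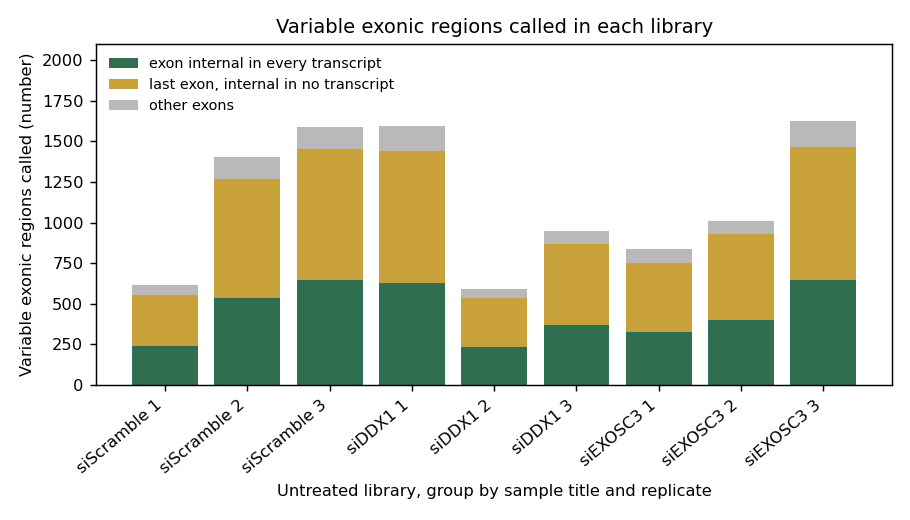
Number of variable exonic regions called in each of the 9 untreated libraries, stacked by the kind of exon at the midpoint, with exons internal in every transcript in green, last exons in yellow and others in grey. Totals run from 588 to 1624 and the 3 libraries of each group differ widely.

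Set against intronic calls, exonic calls were more frequent in the libraries labelled siEXOSC3. This ratio was chosen after its values were seen. For each variable intronic region called, libraries labelled siScramble called 0.163, 0.152 and 0.148 exonic regions, those labelled siDDX1 called 0.151, 0.143 and 0.146, and those labelled siEXOSC3 called 0.185, 0.179 and 0.174. All 3 libraries labelled siEXOSC3 lay above the other 6, and the other 2 groups overlapped. The group means were 0.154 ± 0.00790, 0.147 ± 0.00410 and 0.180 ± 0.00518 (SD, n = 3 each), and the groups differed (exact permutation test of the F statistic, p = 0.00714, adjusted p = 0.0214). The pairs could not pass, since their smallest p is 0.1. On the log2 scale libraries labelled siEXOSC3 exceeded those labelled siDDX1 by 0.29 and those labelled siScramble by 0.22 (exact permutation test, two-sided, p = 0.1 each, adjusted p = 0.3).

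The 2 main kinds of exon are parts of the total and share its intronic denominator, so their ratios are no separate support. For exons internal in every transcript it was 0.0605 ± 0.00263 in libraries labelled siScramble, 0.0577 ± 0.00143 in those labelled siDDX1 and 0.0709 ± 0.00143 in those labelled siEXOSC3 (SD, n = 3; exact permutation test, p = 0.00714, adjusted p = 0.0214). For last exons it was 0.0796 ± 0.00436, 0.0761 ± 0.00194 and 0.0915 ± 0.00302 in the same order (SD, n = 3; exact permutation test, p = 0.0107, adjusted p = 0.0214). Set against calls within 1 kb of transcript starts the order turned. There the ratio was 0.349 ± 0.0541 in libraries labelled siEXOSC3, 0.428 ± 0.0242 in those labelled siScramble and 0.437 ± 0.0357 in those labelled siDDX1, and the groups did not differ beyond their spread (SD, n = 3; exact permutation test, p = 0.075, adjusted p = 0.113). Intronic regions were 45.1% to 51.8% of the variable regions called in libraries labelled siEXOSC3 and 53.2% to 58.2% in the other 6, and promoter regions were 22.7% to 28.7% against 18.4% to 21.1%. Median GC of exonic peaks was 50.2% to 50.6% in libraries labelled siEXOSC3 and 48.2% to 49.2% in the others, and that of intronic peaks was 47.3% to 47.5% against 45.7% to 46.3%. GC content thus moved with the ratio, and its part in the difference was not tested.

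**Figure D3:**
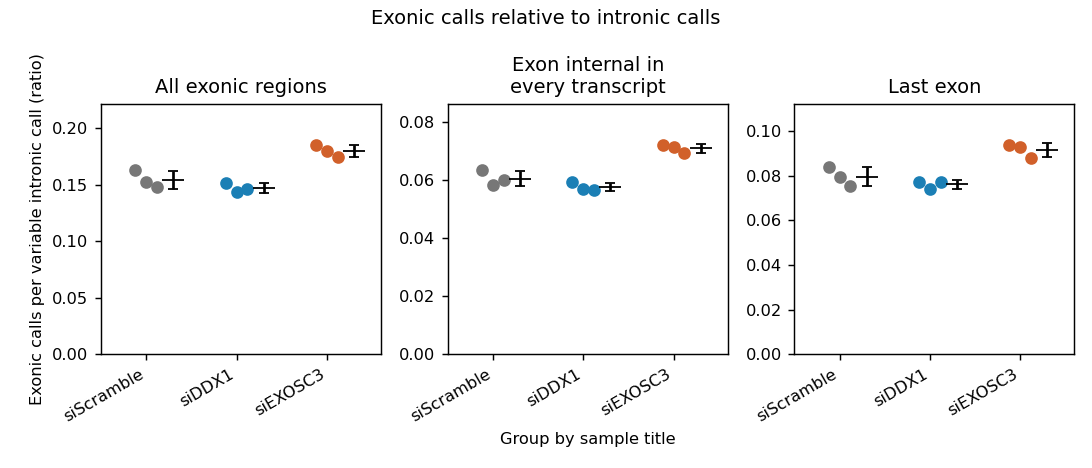
Number of exonic regions called per variable intronic region called, for all exonic regions, exons internal in every transcript and last exons, with 1 point per untreated library and mean ± SD (n = 3) beside each group. Points of the libraries labelled siEXOSC3 lie above those of the other 6 in each panel, from 0.174 to 0.185 against 0.143 to 0.163 in the left one.

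Libraries of the same group shared slightly more exonic regions than libraries of different groups, by a margin that did not pass its test. The Jaccard index, the regions called in both libraries of a pair divided by those called in either, had a mean of 0.343 for 9 pairs of the same group and 0.328 for 27 pairs from different groups, 0.0153 apart (exact permutation test, one-sided, p = 0.179, adjusted p = 0.214). With equal numbers of peaks taken from each library the difference was 0.0410 and passed (exact permutation test, one-sided, p = 0.00357). Within groups the index was 0.360 in siScramble, 0.310 in siDDX1 and 0.359 in siEXOSC3 by title. Of the 2506 regions, 221 (8.82%) were called in a single group, 1083 (43.2%) in 2 groups and 1202 (48.0%) in all 3, where these shares were 10.6%, 44.2% and 45.2% of all variable regions.

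All-or-none regions, with a call in 3 of 3 libraries of 1 group and 0 of 3 of another, were few. Against siScramble by title, 12 regions (0.479%) were called in every siDDX1 and no siScramble library, where 0.456% of all variable regions were, and 19 (0.758%) the other way, where 0.919% of all were. For siEXOSC3 against siScramble there were 37 (1.48%, against 1.24% of all variable regions) and 24 the other way (0.958%, against 1.17%). For siEXOSC3 against siDDX1 there were 37 (1.48%, against 1.15%) and 26 the other way (1.04%, against 0.896%). These shares were close to those of variable regions at large. Among variable intronic regions the shares for siEXOSC3 against siScramble were 0.809% and 1.44%, the reverse order of the exonic ones, with no test of the difference. A single region cannot pass an exact test of 3 against 3, so the genes below are examples picked by significance of their peaks and not tested changes.

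Ranbp2, which encodes a large nucleoporin on the cytoplasmic face of the nuclear pore, held the clearest region of this kind on a long exon. The region, chr10:57940801-57943702, had 2767 of its 2902 bases in an internal coding exon of 4663 bases. Its highest fold enrichment was 6.44, 8.02 and 6.63 in libraries labelled siScramble and 7.42, 8.61 and 9.07 in those labelled siDDX1, and no peak was called in any library labelled siEXOSC3. The fold in the first 2 groups overlapped. In replicate 3 labelled siEXOSC3 a separate peak lay farther upstream in the same exon.

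Serbp1, which encodes an mRNA-binding protein that associates with ribosomes, showed the same pattern on a short exon. The region, chr6:67220583-67222097, spans 2 exons with 292 exon bases, and its midpoint lies in a coding exon of 151 bases. Folds were 5.27, 8.05 and 6.60 in libraries labelled siScramble and 8.15, 7.99 and 9.69 in those labelled siDDX1, with no peak in the 3 labelled siEXOSC3. A peak farther upstream of this region was called in all 9 libraries, so the libraries labelled siEXOSC3 had peaks in the gene's surroundings.

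Sipa1l2, which encodes a GTPase-activating protein for Rap, held a region called in every library labelled siDDX1 and in none labelled siScramble. The region, chr8:127965791-127967263 on the minus strand, holds a coding exon of 154 bases. Folds were 12.2, 7.38 and 7.75 in libraries labelled siDDX1 and 5.03 and 6.95 in 2 of the 3 labelled siEXOSC3, and no peak was called in those labelled siScramble. Replicates 2 and 3 labelled siScramble had peaks outside the region, starting 1194 and 1120 bases from its midpoint, and in 3 of the 5 libraries with a call the peak did not reach the exon itself.

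**Figure D4:**
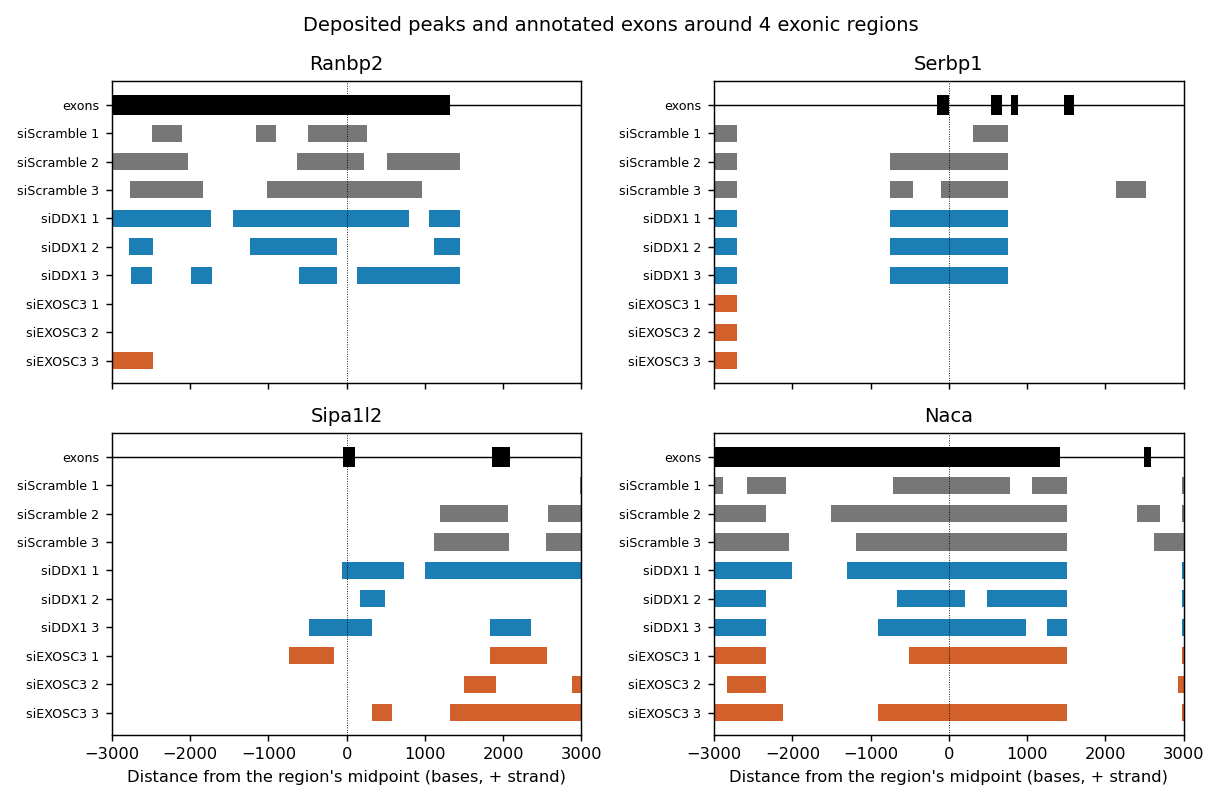
Annotated exons (black, top row of each panel) and deposited peaks of the 9 untreated libraries (bars, by group of the sample title) within 3 kb of the midpoints of 4 exonic regions, with distance in bases along the plus strand. No library labelled siEXOSC3 has a peak anywhere in the Ranbp2 and Serbp1 regions, and the Naca region has peaks in 8 of 9 libraries. At the midpoint itself, replicates 2 and 3 labelled siDDX1 also lack a peak in Ranbp2. Replicate 1 labelled siScramble also lacks one there in Serbp1.

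The other named all-or-none regions had folds of 3.82 to 9.61 where called, which overlapped those of the regions above. Slc9a5, a sodium and proton exchanger, was called at 6.11, 5.53 and 6.34 in libraries labelled siDDX1 and in 1 labelled siEXOSC3, and not in siScramble by title. Slc38a2, a transporter of neutral amino acids, was called at 6.14, 6.02 and 7.72 in libraries labelled siScramble and in none labelled siDDX1. It was also called in 2 labelled siEXOSC3, at 3.82 and 5.68. Aoc3, an amine oxidase, was called at 5.86, 8.05 and 6.03 in libraries labelled siScramble and in none labelled siDDX1. Replicate 3 labelled siEXOSC3 also called it, at 8.36, with a peak that reached the exon at the midpoint. In Aoc3 the peaks of replicates 1 and 3 labelled siScramble did not overlap each other, and neither reached the exon at the midpoint. Only replicate 2 of that group had a peak over this exon. Replicate 3 labelled siDDX1 had a peak outside the Aoc3 region, farther upstream. Rapgef3, an exchange factor for Rap that is activated by cyclic AMP, was called at 6.86, 8.76 and 9.08 in libraries labelled siEXOSC3, in 2 labelled siDDX1 and in none labelled siScramble. A730011L01Rik had the same calls with folds of 5.29, 5.34 and 9.61 in libraries labelled siEXOSC3. Prpf38b, a splicing factor, was called at 6.02, 7.72 and 9.27 in libraries labelled siScramble, in 1 labelled siDDX1 and in none labelled siEXOSC3. BC057022 and Ptprt, the latter a receptor tyrosine phosphatase, were called in 3 of 3 libraries labelled siEXOSC3 (7.46, 6.73 and 7.72, and 7.46, 6.15 and 7.08) and in none labelled siDDX1. BC057022 was also called in 1 library labelled siScramble, at 6.19, and Ptprt in 2, at 7.03 and 4.95. The BC057022 region ends 748 bases from its midpoint. Replicate 3 labelled siDDX1 had a peak in the same exon just outside it, starting 803 bases from the midpoint. A peak of replicate 1 labelled siDDX1 started at 1782 bases. Most of these other all-or-none regions lay in long last exons, of 1876 bases in Slc9a5, 2835 in Slc38a2, 4236 in A730011L01Rik and 7580 in Ptprt.

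**Figure D5:**
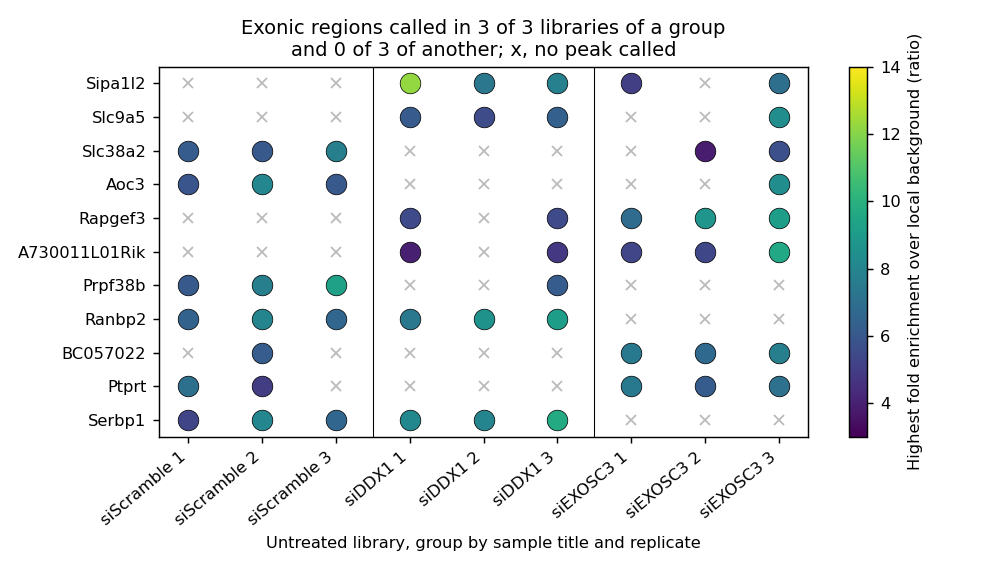
Highest fold enrichment over the local background (colour, linear ratio) of the 11 named all-or-none exonic regions (rows, by gene) in each of the 9 untreated libraries (columns, by group of the title), with a grey x where no peak was called. Each row has a group with 3 calls and another with none, and folds where called run from 3.82 in Slc38a2 to 12.2 in Sipa1l2.

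How often a region was called went with its fold, which the rule allows to be described only. The number of exonic regions fell from 794 called in 2 libraries to 202 called in 7, with 238 called in 8. Just outside these limits stood 2061 exonic regions called in 1 library and 551 called in all 9, and 5 that were 5000 bases or wider. The median over regions of the fold was 4.59 for those called in 1 library, 4.93 for those called in 2, 6.18 for those called in 8 and 7.85 for those called in 9.

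The strongest regions that were called in 8 libraries lay in genes of varied function. Naca encodes a chaperone that binds nascent chains at the ribosome, and its region, chr10:127479220-127482235, had 2923 of 3016 bases in an internal coding exon of 5916 bases. Folds there were 6.82, 14.4 and 12.1 in libraries labelled siScramble, 12.3, 9.47 and 11.8 in those labelled siDDX1 and 8.99 and 15.9 in replicates 1 and 3 labelled siEXOSC3. Nutf2, the import factor of Ran, ranged from 3.97 to 17.96 over its 8 libraries. Pkd1, which encodes polycystin 1, ranged from 5.88 to 11.6, in a region of 4300 bases that crosses 6 exons. Xkr8, a phospholipid scramblase, ranged from 6.11 to 14.5 and Agpat3, an acyltransferase of lipid synthesis, from 6.98 to 16.1, both in last exons. Neat1, the noncoding RNA that builds paraspeckles, ranged from 6.46 to 13.2 in a region inside its single exon of 20771 bases. The largest extents of exon were 3992 bases in Mki67, the proliferation marker Ki-67, 3777 in Cln8, a protein of the endoplasmic reticulum, and 3747 in Gm16867. The Mki67 region was exon from edge to edge in an internal exon of 6836 bases, with folds of 8.79, 6.95 and 9.04 in libraries labelled siScramble, 7.42, 4.00 and 6.48 in those labelled siDDX1 and 4.85 in 1 labelled siEXOSC3.

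Few exonic regions overlapped a peak in the RNase H libraries. The count was 31 of 2506 (1.24%, 95% Wilson interval 0.873 to 1.75), against 3.1% of all variable regions and 2.48% of variable intronic regions (2.26 to 2.72). By group of the title the RNase H library overlapped 22 exonic regions for siScramble, 14 for siDDX1 and 18 for siEXOSC3. With 1 such library per group there is no test between them, and the intervals cover counting error only. In all 3 RNase H libraries 9 regions had a peak. Among them, Samd4, a translational repressor, was called in 8 untreated libraries at folds of 5.64 to 13.4. Pou2f1, the transcription factor Oct1, was called in 7 at 6.13 to 13.1, 4933425L06Rik in 4 at 3.73 to 6.50 and Ptprt in 5 at 4.95 to 7.46. A peak that stays after digestion is not shown to be a hybrid of RNA and DNA, and of the 11 named all-or-none regions Ptprt had a peak in all 3 RNase H libraries and Prpf38b in the 1 labelled siScramble.

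The exonic regions fell in 1974 genes, of which 1898 were protein-coding (8.53% of the 22238 protein-coding genes in the annotation). Most of these genes, 1554, held a single region and 420 held 2 or more. Protein-coding genes with a region were longer, with a median of 31.4 kb against 15.4 kb for all, and the part of length in the counts below was not tested. Dst, which encodes the large cytoskeletal linker dystonin, held 8, the most of any gene, followed by Mll1, a histone methyltransferase, Clcn3, a chloride and proton exchanger, and Pkd1 with 6 each and Plekha6 with 5. How many regions of a gene were called varied between libraries of 1 group. The libraries labelled siScramble called 2, 7 and 5 of the 8 in Dst, those labelled siDDX1 called 7, 2 and 3 and those labelled siEXOSC3 called 2, 0 and 3. In Pkd1 the counts were 0, 1 and 3, then 6, 2 and 3, then 3, 1 and 5 of 6. In Dst the widest region, of 3384 bases, lay in an internal coding exon of 5292 bases and was called in 7 libraries at folds of 4.35 to 7.00.

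Of 8 gene lists, chromatin modifiers and remodellers had the largest share of genes with an exonic region. Such a region lay in 30 of the 59 listed genes found in the annotation (50.8%), with a median gene length of 77.9 kb. They held 50 regions, 21 of them over exons internal in every transcript and 25 over last exons. Mll1 held 6 and the histone demethylase Kdm5c, the remodeller Chd2 and Trrap, a scaffold of acetyltransferase complexes, held 3 each. In Mll1 a region of 3113 bases in the last exon was called in 8 libraries, at folds of 5.29 to 9.01. The Kdm5c region over a coding exon of 411 bases was called at 5.82, 6.51 and 3.83 in libraries labelled siScramble, in 2 labelled siDDX1 and in 1 labelled siEXOSC3. Another Kdm5c region had the reverse order, with calls in 1, 2 and 3 libraries labelled siScramble, siDDX1 and siEXOSC3. The last was called in 2, 3 and 2.

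Large cytoskeletal and scaffold proteins had a region in 12 of 40 genes (30%, median length 120.9 kb), and 15 of their 24 regions lay over exons internal in every transcript. After Dst, Ahnak held 3 regions, all in a coding last exon of 17497 bases, called in 4, 5 and 7 libraries. Kif1b, a motor of vesicle transport, and Tln1, which encodes talin, held 2 each. Splicing factors and hnRNPs had a region in 15 of 53 genes (28.3%, median length 20.1 kb). Rbm25 was called in 8 libraries at folds of 4.50 to 9.29, and Sf3a1, a part of the U2 particle, held 1 region called in 8 libraries and another in 3. Hnrnpul1 and Hnrnpul2 held 2 each, called in 2 or 3 libraries.

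Enzymes that remove R-loops had a region in 7 of 26 genes (26.9%, median length 34.4 kb). In Brca1, a DNA repair gene, a region of 2512 bases lay wholly in the internal coding exon of 3315 bases and was called at 4.81 and 5.52 in 2 libraries labelled siScramble, at 5.85, 4.82 and 5.53 in those labelled siDDX1 and at 4.61 and 6.02 in 2 labelled siEXOSC3. Top2a, a topoisomerase, was called in 7 libraries at 3.58 to 12.5. Ddx21, an RNA helicase, was called in 4, none of them labelled siEXOSC3. Of the RNA exosome, its cofactors and Ddx1, 3 of 24 genes (12.5%) had a region. These were Papd5 and Papd7, poly(A) polymerases, and Zcchc8, a part of the complex that brings the exosome to nuclear RNA, so neither Ddx1 nor any of the core subunits had one. Papd7 was called in 6 libraries at 3.80 to 13.9, 2 of each group.

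Translation factors had a region in 9 of 40 genes (22.5%, median length 16.4 kb), heat shock and folding proteins in 8 of 41 (19.5%, 12.96 kb) and axon guidance and adhesion genes in 7 of 63 (11.1%, 135.0 kb). Eif2s2 held 3, of which the one that reaches into coding sequence was called in 8 libraries at 3.66 to 9.60. Gcn1l1, which activates the kinase Gcn2, held a region of 3692 bases that crosses 7 exons and was called in 8 libraries at 6.45 to 13.3. Eif4g3 held 2 and Eif4g2 held 1. Among chaperones, Hspa4l held 2 and Dnajb6, Dnajb1 and Hspe1 held 1 each. Hspe1, a mitochondrial chaperonin, was called in 3 of 3 libraries labelled siScramble (5.84, 4.81 and 7.67), in 1 labelled siDDX1 and in none labelled siEXOSC3. In the same order of groups, Dnajb1 was called in 1, 2 and 3 libraries and Dnajb6 in 3, 3 and 2. The Hspa4l regions were called in 2, 3 and 3 and in 0, 0 and 2. Among guidance genes Nrp2, a semaphorin receptor, held 4, all in last exons, Slit3, a guidance ligand, and Sema4d held 2 each and Plxnc1 held 1. The lists differ in gene length and were made with earlier results of these data known, so their shares describe these genes and are not a test of the lists.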

How the data were processed

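DRIP-seq peak lists of 12 libraries of N2a cells were analysed; the 1 input sample was not analysed here. Per the study's methods and the submitters' processing notes, reads were aligned to mm9 with Bowtie2 2.4.4 and peaks were called by MACS2 2.2.6 for each library against the input; HOMER 4.11 is also named. The deposited lists hold, as the authors' peak caller wrote them, a fold enrichment (a ratio to the local background, on a linear scale) and a −log10 q-value for each peak; folds were compared within a list or named side by side. The authors' test of recounted reads was not repeated.

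Peaks of the 9 untreated libraries were merged, and an overlap of at least 1 base with a library's peak made a call. Exons, starts and ends came from GENCODE vM1, and sequences from the mm9 genome. The class of exon was read at the midpoint. Distances were set at 1 kb for transcript starts and for the 3′ ends of protein_coding genes. Exact permutation tests were made over libraries on log2 values, with Benjamini-Hochberg adjustment within families of 6, 6 and 2 tests. p below 0.05 counted as passing. For GC content and fold, medians over the peaks of each class were taken within a library.

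The regions, the gene lists and the tests were chosen with earlier results of these data known. Named outside chromosome 18 were the 2 regions of each all-or-none direction with the highest −log10 q, the 6 with the highest median fold among those called in 8 libraries, the 5 genes with most regions, up to 4 regions with RNase H peaks, the 3 with most exon bases and up to 4 genes a list. Python 3.11.15, numpy 2.4.6, scipy 1.17.1, pysam 0.24.0 and matplotlib 3.10.9 were used. The code was tested on simulated data of 3000 regions for siDDX1 against siScramble, where it found 1205 of 1205 regions made to meet the rule and 200 of 200 planted all-or-none regions. The simulated sites lay far from each other and from gene starts and ends. The width limit, the distance limits and the joining of neighbouring sites were thus not tried. Alternatives were a −log10 q of at least 5, equal numbers of peaks, wider joining, a width limit of 3000 bases, other exon and distance rules, leaving out each library, and the replicate number as a block.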

Additional observations from a re-analysis of the deposited data

Results flagged for a closer look

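The number of exonic regions called per variable intronic region called differed between the groups (exact permutation test of the F statistic over the 9 untreated libraries, p = 0.00714, adjusted p = 0.0214). It was 0.174 to 0.185 in the 3 libraries labelled siEXOSC3 and 0.143 to 0.163 in the other 6. The exonic share of all variable calls did not pass the same test (exact permutation, p = 0.268). The intronic share was lower in the libraries labelled siEXOSC3, 45.1% to 51.8% against 53.2% to 58.2%, and the promoter share was higher, 22.7% to 28.7% against 18.4% to 21.1%, so a higher level relative to introns was not particular to exonic regions. By the peak names the libraries that stand apart would be those of siScramble. The measure was chosen after its values were seen, so the test is not independent of that choice.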

How the results depend on the processing

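The number of exonic regions was 1336 with peaks joined across gaps of up to 1000 bases and 1008 with exons internal in every transcript only, the last of which was chosen after seeing the data, and stayed within 1.5 times 2506 in the other 6 alternatives. The exonic share of calls stayed short of the threshold across the 3 groups in all 10 alternatives (p from 0.0964 to 0.904) and without any single library (p from 0.0536 to 0.646). Its sign between pairs turned where values lay near 0. For siDDX1 against siScramble the log2 difference was 0.011 at a −log10 q of at least 5 and 0.010 with wider joining; for siEXOSC3 against siScramble it was -0.018 at that q, -0.0026 with equal peak numbers and -0.0021 with whole regions away from starts and ends; for siEXOSC3 against siDDX1 it was -0.029 at that q. Without single libraries these differences ran from -0.028 to -0.00037, from 0.012 to 0.069 and from 0.028 to 0.085. The ratio of exonic to intronic calls passed in all 9 alternatives (exact permutation test, p from 0.00357 to 0.0278) and without any single library (p from 0.00714 to 0.0214). These runs reuse the same libraries and a measure chosen after its values were seen, so they are no separate support. Without single libraries its log2 differences ran from -0.10 to -0.029 for siDDX1 against siScramble. They ran from 0.19 to 0.26 for siEXOSC3 against siScramble and from 0.27 to 0.31 for siEXOSC3 against siDDX1. Sharing within groups passed with equal peak numbers (0.0410, exact permutation test, p = 0.00357) and ran from 0.0028 to 0.044 without single libraries; without siDDX1 replicate 1 it was 0.044 (exact permutation test, p = 0.0357). The cause of these changes was not tested.

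The fold of exonic over intronic peaks lost its call at a −log10 q of at least 5 (0.038), with wider joining (0.037), with regions under 3000 bases (0.032) and with whole regions away from starts and ends (0.016); without single libraries it ran from 0.037 to 0.052. The difference in GC content passed in all 8 alternatives, from 1.54 to 4.04 points, and ran from 2.59 to 2.70 without single libraries.

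All-or-none counts for siDDX1 over siScramble were 5 at the stricter q, 28 with equal peak numbers, 4 with wider joining, 6 with at least 50% of bases in exons and 5 with internal exons only, and for the other direction 4 with wider joining and 7 with internal exons only. For siEXOSC3 over siScramble they were 20, 18 and 15 at the stricter q, with wider joining and with internal exons only, and the other way 11 and 11 for the last 2. For siEXOSC3 over siDDX1 they were 23, 16 and 19 in the same 3 settings, and the other way 11, 11 and 14, and 15 with at least 50% of bases in exons. Leaving out a library of the pair leaves 2 libraries to meet the rule: the counts ran from 12 to 82, 19 to 174, 37 to 109, 24 to 172, 37 to 132 and 26 to 90 in the order of the 6 directions, the highest without siDDX1 replicate 2, siScramble replicate 1, siEXOSC3 replicate 1, siScramble replicate 1, siDDX1 replicate 1 and siDDX1 replicate 2.

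Libraries with the same replicate number did not deviate together (correlations from -0.021 to 0.062; 4 of 9 libraries were closest to their own number), so the numbers do not pair them. With the replicate number as a block the ratio of exonic to intronic calls gave p = 0.0278 and the exonic share p = 0.278 (exact permutation within numbers), and no call changed.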
